A study of Mus musculus with 6 samples.

Results

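Genes of the nuclear pore and of nuclear transport were examined in keratinocytes carrying an active form of the transcription factor NFATc1. The members were chosen by gene symbol: nucleoporins (Nup followed by a digit), importins (Kpna, Kpnb and Ipo), transportins (Tnpo), exportins (Xpo), Ran-binding proteins (Ranbp), and a fixed set of 8 further symbols, of which 7 had a row of their own. Rows whose annotation gave exactly 1 symbol were kept, which left 58 genes on 68 rows, of 19935 genes measured in all. The rule also names the contrast of caNFATc1 with vector control by replicate number, so the differences and calls below describe the members and are no independent test of them as a group.

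The 3 caNFATc1 cultures were primary keratinocytes of CD1 mice, wild type in genotype, infected with a retrovirus for a human NFATc1 whose autoinhibitory domain was mutated so that the protein is constitutively active. The 3 vector control cultures were the same kind of cells infected with empty MSCV virus. All 6 were grown in low-calcium medium, and total RNA was labelled as biotinylated cDNA and read on single-colour arrays. The labels do not give the sex or age of the mice, the time after infection or the share of cells infected, and all cells of a culture were measured together.

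The nuclear pore is a ring-shaped channel through the nuclear envelope, built from nucleoporins that form an outer ring (the Y complex), an inner ring, a central channel, a nuclear basket, cytoplasmic filaments and a membrane anchor. Large cargo crosses it bound to receptors of the importin beta family, often through an importin alpha adaptor on the way in, and the small GTPase Ran loads and unloads these receptors. Ran is kept in its GTP form inside the nucleus by the exchange factor Rcc1 on chromatin, and in its GDP form outside by Rangap1. In dividing epidermal cells the pore is taken apart and rebuilt at every mitosis, and NFAT proteins themselves enter the nucleus through importins and leave it through the exportin Xpo1.

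Each deposited value is on the log2 scale and gives the distance of an array from the middle of its row, since the median of every row had been set to 0. No level of any gene is known. Where the groups do not overlap, the middle of the row lies halfway between the nearest arrays of each group. The known NFAT target Rcan1 was higher in every pair, by 3.61, 3.12 and 3.40. The row of mouse Nfatc1 differed by 0.04 ± 0.09 (limma adjusted p = 0.917), with pairs of both signs, and whether it reads the human transgene is unknown. The replicate 1 arrays stood apart in both groups: Xist, the RNA that silences an X chromosome, was at -6.05 in the caNFATc1 array and -6.00 in the vector control array of replicate 1, and between -0.04 and 0.18 in the other 4 arrays. Vim, a fibroblast marker, was also low in both replicate 1 arrays, at -2.92 (caNFATc1) and -2.98 (vector control), against -0.03 to 0.79 elsewhere. The replicate 3 arrays stood apart in Dsp, a gene of cell junctions. Dsp was at -2.58 in the caNFATc1 array and -2.78 in the vector control array, against -0.11 to 0.99 elsewhere. The replicate 2 arrays stood apart in Krt15, at -1.81 (caNFATc1) and -1.72 (vector control), against -0.04 to 1.04 elsewhere. Of 8 keratinocyte markers 5 had a negative difference (median -0.01), among them Krt15 at -0.58, negative in every pair but not called, while Krt5 and Krt14 differed by 0.03 and -0.02. Trp63, a regulator of epidermal cells, was called higher with the replicate block (0.42 ± 0.08, SE and limma adjusted p = 0.0444 from that fit). Because levels are unknown the markers could not be checked as present or absent. Of 8 fibroblast markers 6 had a positive difference (median 0.14, range -0.14 to 1.20), and Col3a1 was called higher with the replicate block. Their medians in the pairs of replicates 1, 2 and 3 were -0.05, 0.06 and 0.48. Of 19 melanocyte, endothelial, immune and Merkel cell markers, 0 were called in either limma fit (of all genes 0.216% without the block and 6.11% with it). At an unadjusted limma p under 0.05, 0 were found without the block (of all genes 5.64% lower and 7.07% higher). With it 1 was lower (9.78% of all genes). The part of other cells in the results was not tested, and fewer cells of a type and less RNA per cell cannot be told apart in such samples.

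Most members had small negative differences that did not pass the test, 8 were called lower in the fit with a replicate block, and 1 exportin gene, Xpo6, rose in both fits. Of the 58 members, 46 (79.3%) had a negative difference of group means, against 52.6% of all genes. Their median log2 difference was -0.21, against -0.0073 over all genes. In 36 members all 3 same-numbered pairs were negative (21.3% of all genes), in 4 all were positive (21.6% of all genes) and in 18 the pairs disagreed in sign. The values of the caNFATc1 arrays lay wholly below those of the vector control arrays in 22 members (background 9.09%) and wholly above them in 3 (background 9.64%).

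The differences were small. The absolute log2 difference was under 0.1 in 16 members and at least 0.4 in 13. In the limma fit with group as the only term, 1 member was called higher at an adjusted p under 0.05 (background 0.206%) and 0 were called lower (background 0.0100%), while an unadjusted p under 0.05 was found for 21 members in the lower direction (background 5.64%) and 3 in the higher (background 7.07%). With the replicate number as a block, which estimates the same differences with another standard error (SE), 2 members were called higher (background 3.73%) and 8 lower (background 2.38%), 10 in all (background 6.11%), while 31 were lower (background 9.78%) and 3 higher (background 11.7%) at an unadjusted p under 0.05. The calls with the block depended on the pairs: without replicate 1, 2 or 3 of both groups 1, 0 and 9 members were called lower and 1 higher (Xpo6) in each case. Over all genes these settings gave 202, 230 and 481 lower calls and 509, 513 and 605 higher calls. The 1 member called lower without replicate 1 was Nup37. Of the 9 without replicate 3, 5 were among the 8 (Ndc1, Rcc1, Nup37, Nup85 and Nup205), while Nup107, Nup133, Nup160 and Rangap1 gained a call and Nup43, Nup54 and Ran lost it. The median SE over the members was 0.12 without the block and 0.08 with it. Since the contrast is part of the rule, nothing is read from these shares.

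**Figure D1:**
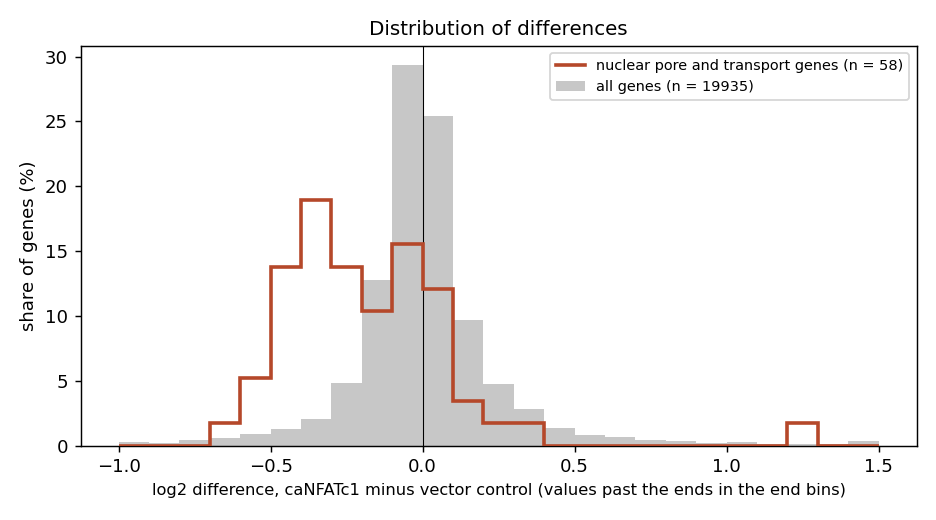
Share of genes (y axis, percent) by log2 difference of caNFATc1 minus vector control (x axis, bins of 0.1) for the 58 nuclear pore and transport genes (red line) and all 19935 genes (grey). The members centre at a median of -0.21 against -0.0073, and the lone member on the right is Xpo6 at 1.28.

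Among the roles, only in the outer ring did the caNFATc1 values of every member lie below all vector control values. This holds for the genes placed in that role. The groups overlapped for Seh1l and Sec13 (0.03 and 0.07), outer ring genes that the symbol rule did not catch. They also overlapped for Nup98 (-0.13), placed in the central channel, whose precursor also yields an outer ring protein. The 6 Y complex genes that the symbol rule caught had negative differences, between -0.56 and -0.40, with a median of -0.47, and all 3 pairs were negative for each. With the block Nup37, Nup85 and Nup43 were called lower (background 2.38%). Without it 0 were called, with all 6 lower at an unadjusted limma p under 0.05 (background 5.64%).

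Nup37, a peripheral subunit of the Y complex, had values of -0.24, -0.29 and -0.29 in caNFATc1 replicates 1 to 3, against 0.24, 0.39 and 0.24 in vector control replicates 1 to 3. Each group was tight, and the gap between the groups was several times the spread inside them. Its log2 difference was -0.56 ± 0.07 (SE, n = 3 per group, limma adjusted p = 0.0515 without the block and 0.0177 with it), which is a fold of 0.68. Its pairs differed by -0.47, -0.68 and -0.52.

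Nup85, a scaffold subunit of the same complex, had values of -0.54, -0.24 and -0.16 in caNFATc1 cells, against 0.24, 0.29 and 0.16 in vector control cells. The caNFATc1 array of replicate 1 was the lowest, and the control arrays lay close together. The difference was -0.54 ± 0.11 (limma adjusted p = 0.128 without the block and 0.0412 with it). Nup43, another peripheral subunit, had values of -0.22, -0.11 and -0.23 in caNFATc1 cells, against 0.24, 0.28 and 0.11 in vector control cells. Its pairs differed by -0.47, -0.39 and -0.34, a difference of -0.40 ± 0.07 (adjusted p = 0.0974 without the block and 0.0307 with it).

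The other outer ring members, Nup107, Nup133 and Nup160, are large subunits of the Y complex. Nup107 had values of -0.52, -0.51 and -0.07 in caNFATc1 cells, against 0.18, 0.07 and 0.14 in vector control cells, with replicate 3 of the caNFATc1 arrays nearest to the controls. Its difference was -0.50 ± 0.13, and those of Nup133 and Nup160 were -0.45 ± 0.12 and -0.41 ± 0.12. These 3 genes were not called in either fit (limma adjusted p = 0.0582, 0.087 and 0.0551 with the block). In each of them the pair of replicate 1 was the most negative and that of replicate 3 the least.

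**Figure D2:**
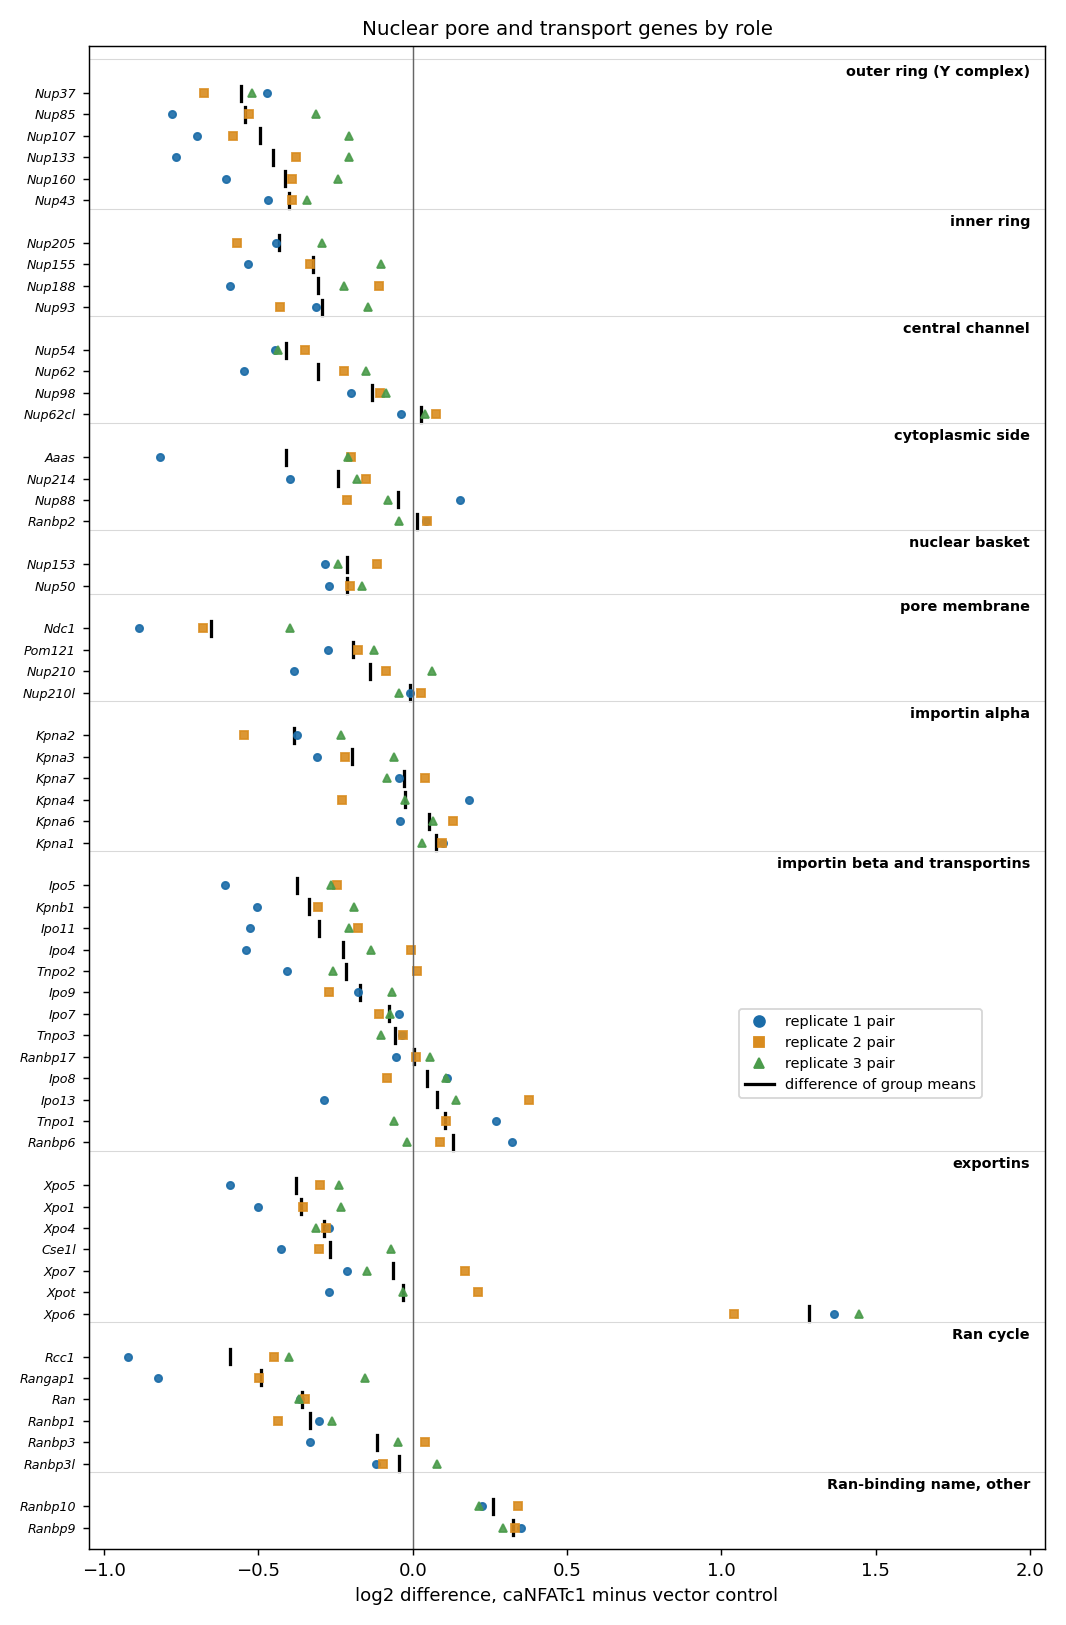
Log2 difference of caNFATc1 minus vector control (x axis) for each of the 58 genes (y axis), grouped by role, with circles, squares and triangles for the pairs of replicates 1, 2 and 3 and a black bar for the difference of group means. The 6 outer ring members lie between -0.56 and -0.40, while importin alpha genes lie on both sides of 0 and Xpo6 lies at 1.28.

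All 4 inner ring genes, which line the channel wall, had negative differences in all 3 pairs (range -0.43 to -0.30, median -0.31). Nup205 had values of -0.51, -0.13 and 0.07 in caNFATc1 cells, against -0.07, 0.44 and 0.36 in vector control cells. The groups overlapped, since vector control replicate 1 lay below caNFATc1 replicate 3, but the pairs differed by -0.44, -0.57 and -0.29. Nup205 was therefore far from a call without the block (-0.43 ± 0.20, limma adjusted p = 0.443) and was called lower with it (SE 0.08, adjusted p = 0.0375). Without caNFATc1 replicate 1 the difference was -0.27, and without replicate 1 of both groups -0.43. Nup155, Nup188 and Nup93 were not called in either fit.

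Among genes of the central channel, whose proteins carry the flexible repeats that receptors bind, Nup54 had values of -0.17, -0.19 and -0.16 in caNFATc1 cells, against 0.28, 0.16 and 0.28 in vector control cells. The groups did not overlap and the 3 caNFATc1 arrays were nearly equal. Its difference was -0.41 ± 0.06 (limma adjusted p = 0.0632 without the block and 0.0287 with it). Nup62, its partner in the channel, differed by -0.31 ± 0.12, with overlap between the groups. Nup98, whose precursor also yields an outer ring protein, differed by -0.13 ± 0.12, and Nup62cl, which encodes a relative of Nup62, by 0.03 ± 0.08. None of Nup62, Nup98 and Nup62cl was called in either fit.

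Of the pore membrane genes, Ndc1 had the most negative difference of all 58 members. Ndc1, a protein that spans the envelope and anchors the pore, had values of -0.84, -0.22 and -0.04 in caNFATc1 cells, against 0.04, 0.46 and 0.35 in vector control cells. The caNFATc1 array of replicate 1 lay far below the others, and the nearest arrays of the groups were close to each other. The difference was -0.65 ± 0.23, a fold of 0.635 (limma adjusted p = 0.314 without the block and 0.0293 with it), and the pairs differed by -0.89, -0.68 and -0.40. Without caNFATc1 replicate 1 the difference was -0.42, closer to 0 than those of Nup37 (-0.57) and Nup85 (-0.43) in that setting. Leaving out replicate 1 of both groups gave -0.54, between those of Nup37 (-0.60) and Nup85 (-0.42). Pom121, another membrane anchor, differed by -0.19 ± 0.08, and Nup210 and its relative Nup210l by -0.14 and -0.0092, without a call in either fit. Nup210l was read by 9 rows, whose differences ran from -0.07 to 0.06.

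On the cytoplasmic side and at the basket, 0 of 6 genes were called in either fit (background 0.216% without the block and 6.11% with it). At an unadjusted limma p under 0.05, 1 cytoplasmic and 1 basket gene were lower without the block (background 5.64%). With it 2 of each were lower (background 9.78%). Aaas, which encodes the nucleoporin ALADIN, differed by -0.41 ± 0.14, and by -0.82, -0.20 and -0.21 in the pairs, so its mean rests largely on replicate 1. The filament protein gene Ranbp2, which carries Ran-binding domains and a SUMO ligase, differed by 0.01 ± 0.12. Its values were -0.25, 0.06 and -0.02 in caNFATc1 cells, against -0.29, 0.02 and 0.03 in vector control cells, so both replicate 1 arrays were low and the groups lay on top of each other. The basket gene Nup153 differed by -0.21 ± 0.07 with no overlap between the groups, and Nup50, whose protein helps to release importin cargo, by -0.21 with overlap. Nup214 and Nup88, which form a complex at the cytoplasmic face, differed by -0.24 and -0.05.

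Of the 6 genes of the Ran cycle, 2 were called lower with the block (background 2.38%) and 0 without it. In the fit without the block 4 were lower at an unadjusted limma p under 0.05 (background 5.64%). The differences of the 6 genes lay between -0.59 and -0.04, with a median of -0.35. Ran itself had values of -0.23, -0.16 and -0.13 in caNFATc1 cells, against 0.13, 0.18 and 0.24 in vector control cells. The pairs were nearly equal, at -0.37, -0.35 and -0.37. The difference was -0.36 ± 0.06, a fold of 0.779 (limma adjusted p = 0.0845 without the block and 0.0346 with it).

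Rcc1, the nuclear exchange factor that charges Ran with GTP, had values of -0.86, -0.06 and -0.33 in caNFATc1 cells, against 0.06, 0.39 and 0.07 in vector control cells. The groups did not overlap, but the caNFATc1 array of replicate 2 lay close to the controls and that of replicate 1 far below. The difference was -0.59 ± 0.22 (limma adjusted p = 0.334 without the block and 0.0458 with it), and -0.37 without caNFATc1 replicate 1. Leaving out replicate 1 of both groups gave -0.43. Rangap1, the activator of GTP hydrolysis by Ran, had values of -0.45, -0.34 and -0.08 in caNFATc1 cells, against 0.37, 0.16 and 0.08 in vector control cells. It was not called in either fit (-0.49 ± 0.12, limma adjusted p = 0.19 without the block and 0.0926 with it), and its pairs ran from -0.82 to -0.15. Ranbp1, which aids Rangap1, differed by -0.33 ± 0.06 (adjusted p = 0.0974 without the block and 0.0527 with it). Ranbp3, a cofactor of Xpo1, and its relative Ranbp3l differed by -0.11 and -0.04, with overlap and with pairs of both signs.

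**Figure D3:**
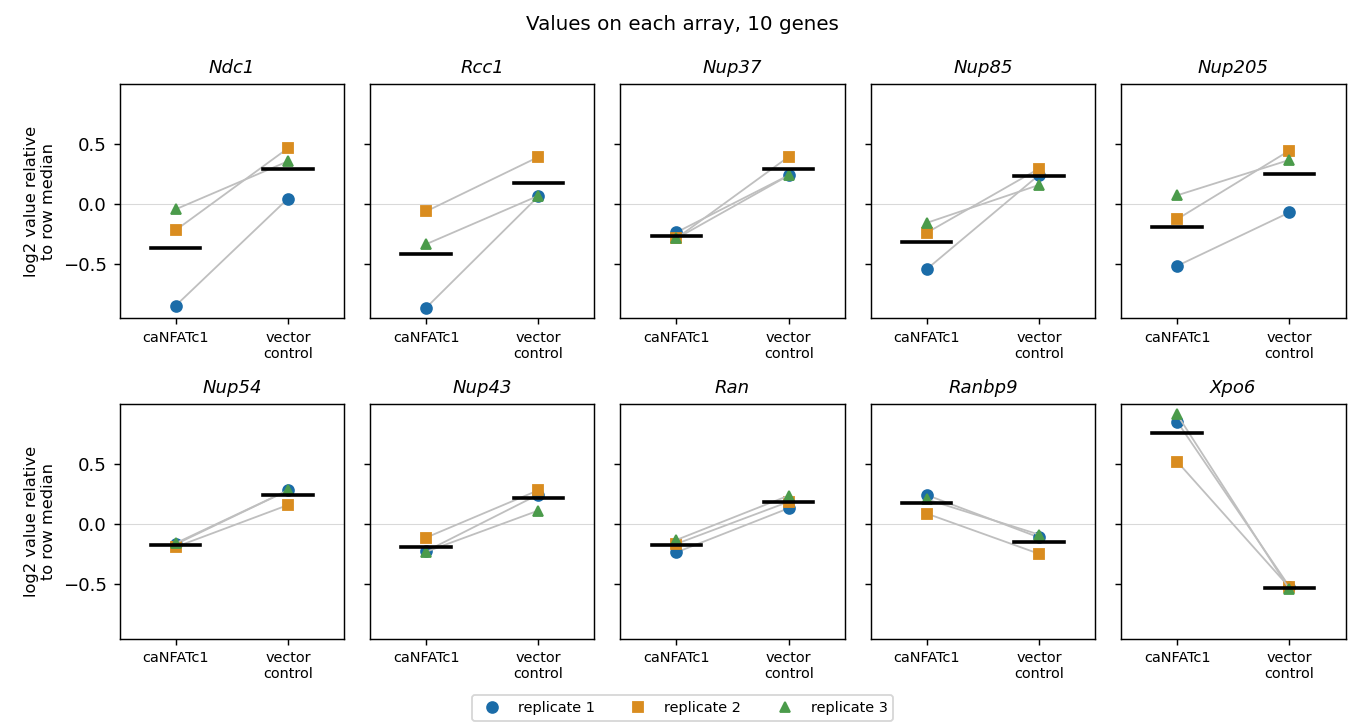
Values on each array (y axis, log2 relative to the row median) for the 10 members called in the fit with the replicate block, with caNFATc1 left of vector control, a symbol per replicate, grey lines between same-numbered arrays and black bars for group means. Ran and Nup54 have nearly equal pairs, Ndc1 and Rcc1 are spread by replicate 1, and Xpo6 alone spans more than 1 log2 unit upward.

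The transport receptors were more mixed than the pore. Of 24 pore genes 22 had a negative difference (median -0.31), and of 26 importins, transportins and exportins 18 did (median -0.07). The difference between these sets was not tested. With the block 6 pore genes were called lower and 0 receptor genes were (background 2.38%). At an unadjusted limma p under 0.05 in that fit 18 pore genes and 9 receptor genes were lower (background 9.78%).

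The importin alpha adaptors, which read the classical import signal, split by gene. Kpna2 had values of -0.34, -0.30 and -0.04 in caNFATc1 cells, against 0.04, 0.24 and 0.19 in vector control cells, without overlap. It was not called in either fit (-0.38 ± 0.10, limma adjusted p = 0.208 without the block and 0.0549 with it). Its 3 rows differed by between -0.39 and -0.38, so near-identical that they may read shared sequence and are not independent measurements. Kpna1 and Kpna6 differed by 0.07 ± 0.14 and 0.05 ± 0.22, Kpna3, Kpna4 and Kpna7 by -0.20, -0.02 and -0.03, and in all 5 the groups overlapped.

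Of 13 genes of importin beta and its import relatives, 8 had a negative difference, and the range was -0.37 to 0.13. Kpnb1, importin beta itself, had values of -0.50, -0.0031 and -0.01 in caNFATc1 cells, against 0.0031, 0.30 and 0.18 in vector control cells. Replicates 2 and 3 of the caNFATc1 arrays lay just under the lowest control. The difference was -0.33 ± 0.16 (limma adjusted p = 0.47 without the block and 0.0778 with it), and the pairs were -0.51, -0.31 and -0.19. Without caNFATc1 replicate 1 the difference was -0.17, and without replicate 1 of both groups -0.25. Ipo5 had the most negative difference of this role at -0.37, with no overlap. Ranbp6, Tnpo1 (the receptor for many RNA-binding proteins), Ipo13 and Ipo8 had positive differences of 0.13 ± 0.20, 0.11 ± 0.09, 0.08 ± 0.14 and 0.05 ± 0.16, each with pairs of both signs. Within this role Ipo13 showed the widest disagreement, at -0.29, 0.38 and 0.14 in the 3 pairs. The remaining members of this role, Ipo11, Ipo4, Tnpo2, Ipo9, Ipo7, Tnpo3 and Ranbp17, lay between -0.30 and 0.0040.

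The exportins held the exception. Of 7 exportin genes 6 had a negative difference, and Xpo6 was the only member of the 58 called in the fit without the block. Xpo6, the receptor that carries actin bound to profilin out of the nucleus, had values of 0.85, 0.52 and 0.91 in caNFATc1 cells, against -0.52, -0.52 and -0.54 in vector control cells. The 3 controls were almost equal, and every caNFATc1 array lay more than 1 log2 unit above them. The difference was 1.28 ± 0.11, or 2.44-fold (limma adjusted p = 0.0275 without the block and 0.00604 with it), with 1.37, 1.04 and 1.45 in the pairs. Counted from the highest difference downward, it ranked 95 among the 19935 genes. The call without the block was lost when any single array other than caNFATc1 replicate 2 was left out (adjusted p between 0.0636 and 0.159), while the difference stayed between 1.20 and 1.41 in these and in the settings with a pair left out. The genes of its cargo, Actb and Pfn1, were looked at because of this result and differed by -0.0013 ± 0.05 and -0.02 ± 0.06 (adjusted p = 0.996 and 0.959).

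The other 6 exportins had negative differences. Xpo1, the main export receptor for proteins, whose cargo includes NFAT, had values of -0.49, -0.02 and -0.06 in caNFATc1 cells, against 0.02, 0.34 and 0.17 in vector control cells. The groups did not overlap, by a narrow margin. The difference was -0.36 ± 0.15 (limma adjusted p = 0.406 without the block and 0.0553 with it), with -0.50, -0.36 and -0.23 in the pairs and -0.21 without caNFATc1 replicate 1. Leaving out replicate 1 of both groups gave -0.29. Cse1l, which returns importin alpha to the cytoplasm, differed by -0.27 ± 0.21 with overlap, although all 3 of its pairs were negative (-0.43, -0.30 and -0.07). Without caNFATc1 replicate 1 it was -0.06, and without vector control replicate 2 it was -0.16. Leaving out replicate 1 of both groups gave -0.19. Xpo5, which carries microRNA precursors, Xpo4, Xpo7 and Xpot, the tRNA exporter, differed by -0.38, -0.29, -0.06 and -0.03 and were not called.

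Ranbp9 and Ranbp10, which share the Ran-binding name but encode scaffold proteins of a ubiquitin ligase complex, were the other members with no overlap and higher values in caNFATc1 cells. Ranbp9 had values of 0.24, 0.09 and 0.20 in caNFATc1 cells, against -0.11, -0.25 and -0.09 in vector control cells. The pairs were close to each other, at 0.35, 0.33 and 0.29. It was called higher with the block. Its difference was 0.33, or 1.25-fold (SE 0.07 and limma adjusted p = 0.155 without the block, 0.06 and 0.0444 with it). Ranbp10 had values of 0.04, 0.30 and 0.04 in caNFATc1 cells, against -0.19, -0.04 and -0.18 in vector control cells. Its difference of 0.26 ± 0.09 was not called in either fit (adjusted p = 0.334 without the block and 0.0852 with it).

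Variation between cultures was shared by the 2 groups. When the group mean was taken from each member's values, what was left correlated over the 58 members at 0.63, 0.55 and 0.58 between the caNFATc1 and vector control arrays of replicates 1, 2 and 3, and at between -0.66 and 0.35 for other pairings. These are correlations across genes, which are not independent replicates. Among the 6 arrays, caNFATc1 replicate 1 held the lowest value in 27 members (46.6%, against 27.1% of all genes), and vector control replicate 2 held the highest in 25 (43.1%, against 12.3%). The size of the difference varied by pair. The median over members was -0.31, -0.19 and -0.14 in the pairs of replicates 1, 2 and 3, against -0.06, 0.02 and 0.01 over all genes. In these pairs 48, 41 and 47 of the 58 members were negative, against 12196, 8621 and 9137 of all 19935 genes. Without replicate 1 of both groups the median over members was -0.17 and 44 were negative.

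Genes of mitosis moved in the same direction. All 24 measured genes of a mitosis list had a negative difference in every pair (median -0.64). With the block 11 were called lower (background 2.38%). Without it 0 were called, and 22 were lower at an unadjusted limma p under 0.05 (background 5.64%). The median of the 24 was -0.82 and -0.84 in the pairs of replicates 1 and 2 and -0.25 in that of replicate 3. The outer ring medians in these pairs were -0.65, -0.46 and -0.28, and those of the Ran cycle -0.35, -0.39 and -0.21. Among the 3 pairs, that of replicate 3 had the highest difference in 27 of the 58 members. The part of cell division in the results for the pore genes was not tested.

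**Figure D4:**
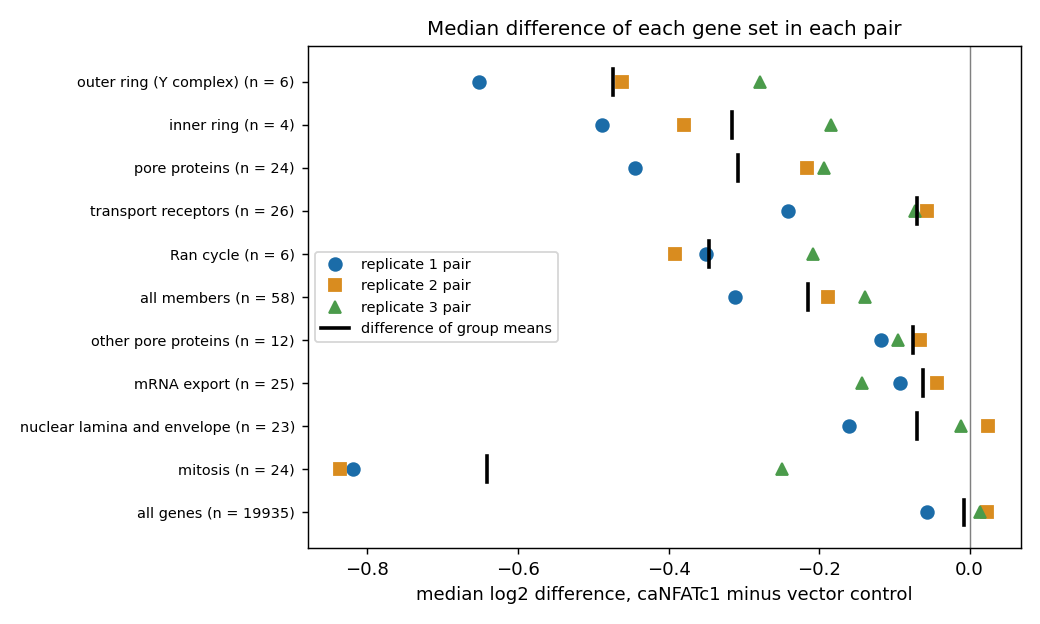
Median log2 difference of caNFATc1 minus vector control (x axis) of each gene set (y axis, with its number of genes) in the pairs of replicates 1, 2 and 3 (symbols) and between the group means (black bars). The mitosis list lies at -0.82, -0.84 and -0.25, the members at -0.31, -0.19 and -0.14, and all genes near 0.

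Other genes of the same machinery, taken from fixed lists, had set medians between -0.11 and -0.06, against -0.21 for the members. Single genes of these lists differed by as much as -0.62. Of 12 pore-associated genes outside the rule, among them Seh1l and Sec13 of the outer ring, 8 had a negative difference (median -0.07). In either fit 0 were called (background 0.216% without the block and 6.11% with it). An unadjusted limma p under 0.05 was found for 0 without the block (background 5.64% lower and 7.07% higher). With it 1 was lower (background 9.78%). Seh1l and Sec13 differed by 0.03 and 0.07, while Ahctf1 of the same list differed by -0.18, negative in every pair and not called. Of 25 measured genes of mRNA export 18 had a negative difference (median -0.06). With the block 0 were called higher (background 3.73%) and 3 lower (background 2.38%). These were the helicase gene Ddx39a (-0.62 ± 0.06, SE and limma adjusted p = 0.0111 with the block), the cap-binding subunit gene Ncbp2 (-0.46 ± 0.07, 0.0264) and the export adaptor gene Alyref (-0.45 ± 0.08, 0.035). Without the block 0 of the 25 were called, with 6 lower at an unadjusted limma p under 0.05 (background 5.64%). Of 10 measured transport adaptors, 7 had a negative difference (median -0.11). In either fit 0 were called (background 0.216% without the block and 6.11% with it). At an unadjusted limma p under 0.05, 0 were found without the block (background 5.64% lower and 7.07% higher). With the block 1 was lower (background 9.78%).

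In the nuclear lamina and envelope, 13 of 23 genes had a negative difference (median -0.07). With the block 2 were called higher (background 3.73%) and 1 lower (background 2.38%), and without it 0 were called (background 0.216%). At an unadjusted limma p under 0.05 without the block, 2 were higher (background 7.07%) and 4 lower (background 5.64%). Sun2, an inner membrane protein of the bridge between nucleus and cytoskeleton, had values of 0.60, 0.05 and 0.20 in caNFATc1 cells, against -0.05, -0.69 and -0.66 in vector control cells. The 2 groups came close only between caNFATc1 replicate 2 and vector control replicate 1. Its difference was 0.75 ± 0.07 (SE and limma adjusted p = 0.00904 with the block, 0.241 without). Syne3, an outer membrane partner in such bridges, differed by 0.64 ± 0.09 (0.0212 with the block), and the lamin gene Lmnb1 by -0.68 ± 0.13 (0.0444 with the block).

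Promoter sequences were set beside these differences for the members that were called. RefSeq windows of the GRCm38.p6 build, from 250 bases before to 50 after a gene's start, were available for 47 of the 58 members, 7 of them with a pair of windows. The 6 shown are the members called higher, Xpo6 and Ranbp9, and 4 of those called lower, and where a gene has several windows the one with the lowest coordinate is given. Capitals mark the NFAT core GGAAA or its reverse complement TTTCC, and the cell cycle homology element TTTGAA or its reverse complement TTCAAA. The arrays were annotated on another build, and no coordinate below was used to place a probe.
Xpo6 (chr7:126200452-126200751, minus strand): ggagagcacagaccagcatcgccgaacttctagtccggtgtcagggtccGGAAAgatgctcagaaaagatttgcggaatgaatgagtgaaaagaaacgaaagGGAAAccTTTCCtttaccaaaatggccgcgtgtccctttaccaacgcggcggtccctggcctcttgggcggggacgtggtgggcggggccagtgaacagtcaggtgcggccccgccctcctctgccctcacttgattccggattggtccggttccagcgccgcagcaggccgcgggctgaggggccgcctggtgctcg
Ranbp9 (chr13:43480924-43481223, minus strand): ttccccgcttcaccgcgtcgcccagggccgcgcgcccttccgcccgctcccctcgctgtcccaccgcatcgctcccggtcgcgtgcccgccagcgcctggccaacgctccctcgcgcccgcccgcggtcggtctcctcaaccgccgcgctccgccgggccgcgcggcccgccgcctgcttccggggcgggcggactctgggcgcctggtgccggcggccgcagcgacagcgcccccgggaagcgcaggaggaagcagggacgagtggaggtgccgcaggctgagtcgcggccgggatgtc
Nup37 (chr10:88146742-88147041, plus strand): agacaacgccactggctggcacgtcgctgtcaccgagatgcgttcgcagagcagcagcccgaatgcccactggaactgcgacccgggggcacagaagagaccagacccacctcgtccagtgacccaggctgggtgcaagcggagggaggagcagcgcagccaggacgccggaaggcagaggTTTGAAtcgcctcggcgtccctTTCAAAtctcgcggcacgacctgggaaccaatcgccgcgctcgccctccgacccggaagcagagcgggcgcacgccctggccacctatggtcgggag
Ndc1 (chr4:107367797-107368096, plus strand): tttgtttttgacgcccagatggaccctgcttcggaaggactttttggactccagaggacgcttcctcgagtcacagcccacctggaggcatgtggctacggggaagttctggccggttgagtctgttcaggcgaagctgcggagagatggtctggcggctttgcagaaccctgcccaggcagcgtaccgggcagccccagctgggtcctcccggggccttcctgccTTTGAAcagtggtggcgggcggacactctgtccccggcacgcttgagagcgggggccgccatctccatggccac
Rcc1 (chr4:132345701-132346000, minus strand): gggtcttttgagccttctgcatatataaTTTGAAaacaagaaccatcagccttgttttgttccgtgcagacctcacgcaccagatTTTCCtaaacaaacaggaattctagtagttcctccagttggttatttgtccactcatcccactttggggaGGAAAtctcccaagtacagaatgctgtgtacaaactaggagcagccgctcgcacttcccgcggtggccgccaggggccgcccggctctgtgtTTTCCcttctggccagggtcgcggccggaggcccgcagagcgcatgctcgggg
Ran (chr5:129019906-129020205, plus strand): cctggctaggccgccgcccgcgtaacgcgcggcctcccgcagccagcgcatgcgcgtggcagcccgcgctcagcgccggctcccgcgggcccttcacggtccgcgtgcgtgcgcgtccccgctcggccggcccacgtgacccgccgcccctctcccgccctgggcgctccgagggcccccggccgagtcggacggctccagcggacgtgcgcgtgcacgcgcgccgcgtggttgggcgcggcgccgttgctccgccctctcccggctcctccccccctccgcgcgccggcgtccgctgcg

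The Xpo6 window held 3 matches to the NFAT core, and the Ranbp9 window 0. The core was found in 34 of 54 member windows (63%), against 61.3% of all 32851 windows, so a match is common. TTTGAA was found in 13 member windows (24.1%, against 17.9% of all windows) and in 4 of the 7 windows of members called lower with the block. These 7 windows belong to 6 genes, and the 4 with TTTGAA to Ndc1, Nup37 and Rcc1, which are all among the genes shown. Nup205 and Nup54, called lower but not shown, had no TTTGAA in their windows. Of these 7 windows the ETS core CGGAAG was also in 4, the CCAAT box and the E-box in 2 each and the NFAT core in 1. TTTGAA had 2 matches in the Nup37 window shown, 1 each in those of Ndc1 and Rcc1, and 0 in that of Ran. Rcc1 also held 3 matches to the NFAT core. The CCAAT box was found in 44.4% of member windows (37.4% of all windows), the E-box CACGTG in 16.7% (7.15%) and the ETS core CGGAAG in 35.2% (16.9%), each on either strand. The NFAT core and the ETS core share the letters GGAA but differ in the next base, so 1 site cannot match both, although neighbouring matches can share an end base, and TTTCC can share its last letters with a CCAAT box. A match is a run of letters in a short window, and binding was not measured.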

How the data were processed

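Total RNA of 6 cultures, 3 with caNFATc1 and 3 with the empty vector, was read on 6 arrays, and titles gave group and replicate number. The deposited table holds log2 values in 28815 rows. Per the submitters' processing notes the authors used RMA and the build mm8. Version and row filters: not given in the sources used here. Every row's median was 0 within 1e-06, so brightness is lost, dim rows could not be filtered, and base 2 was assumed for the logarithm from the use of RMA. The number of arrays limits the precision.

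Rows were named through the platform annotation: 21780 carried 1 symbol, 1605 several and 5430 had no entry. Entrez numbers were matched to a GRCm38.p6 gene table, which changed 0 symbols and lacked 91 rows. A gene's value is the mean of its rows, which gave 19935 genes.

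Differences were tested 2-sided in limma 3.58.1 under R 4.3.3 (lmFit, then eBayes) on group alone, with Benjamini-Hochberg adjustment over all 19935 genes and a threshold of 0.05, and again with the replicate number as a block. The fit was tested on simulated data whose planted changes were larger than the difference of any member. How well it recovers smaller changes was not tested. Differences are caNFATc1 minus vector control, and SE is limma's moderated standard error. For the members, Nfatc1, Actb and Pfn1 the SE is that of the fit without the block, unless stated otherwise. For Trp63 and the genes of the fixed lists it is that of the fit with the block. The series design calls the replicates biological without saying that equal numbers share a culture. The limma p-values set each difference against the spread among these samples only. With the block, that is the spread of the differences between same-numbered arrays. Same-numbered arrays deviated together across genes (correlations 0.71, 0.61 and 0.57, other pairings -0.60 to 0.18, limit 0.1), and on that basis equal numbers were treated as pairs. Alternatives were the block, quantile normalization, other ways to treat several rows, robust eBayes, and leaving out arrays or pairs.

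The members, roles, lists and tests were chosen with earlier results of these data known. Members named with values were the 10 highest and 10 lowest by difference, those called in either fit, and 17 fixed symbols (1, Tpr, is not analysed here). Other members, Actb and Pfn1 are given because they complete a role or because Xpo6 had been seen. From the fixed lists, genes called in either fit were named, with Seh1l, Sec13 and Ahctf1 added after their values were seen. The promoter motifs were chosen after the calls were seen.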

Additional observations from a re-analysis of the deposited data

How the results depend on the processing

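Every setting gave a negative median over the members, from -0.26 to -0.15, and between 44 and 51 members with a negative difference. The calls depended on the fit. The replicate block raised the members called higher to 2 and those called lower to 8, against 1 and 0. Leaving out 1 array gave between 0 and 1 member called higher and 0 lower, and leaving out a pair without the block gave 0 and 0. With the block, 1 member was called higher without replicate 1, 2 or 3 of both groups, and 1, 0 and 9 lower. Over all genes these settings with the block gave 509, 513 and 605 higher calls and 202, 230 and 481 lower calls. Quantile normalization, another choice of row and robust eBayes kept 1 and 0, while quantile normalization raised the calls over all genes to 149 higher and 20 lower, against 41 and 2. Without caNFATc1 replicate 2 the calls over all genes were 74 higher and 9 lower. Fewer arrays leave fewer degrees of freedom, but what changed the calls was not tested.

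Of 561 comparisons of 33 named members with their main value, 517 kept direction and side of the threshold, 19 gained a call, 8 (all Xpo6) lost it and 17 changed sign. The members that changed sign were not called in either fit. Without caNFATc1 replicate 1 these differences moved toward 0 by over 1.5 times: Ndc1 to -0.42, Rcc1 to -0.37, Nup205 to -0.27, Aaas to -0.27, Xpo1 to -0.21, Nup62 to -0.20, Kpnb1 to -0.17, Cse1l to -0.06 and Nup98 to -0.02. Leaving out replicate 1 of both groups gave, in the same order, -0.54, -0.43, -0.43, -0.20, -0.29, -0.19, -0.25, -0.19 and -0.10. With arrays or pairs left out, Ipo13 ran from -0.073 to 0.259 (0.177 without caNFATc1 replicate 1), Ipo8 from -0.098 to 0.172, Kpna1 from -0.045 to 0.183, Kpna6 from -0.127 to 0.234, Nup62cl from -0.024 to 0.088, Ranbp2 from -0.089 to 0.105 and Ranbp6 from -0.078 to 0.279. Without caNFATc1 replicate 2 the differences were -0.055 for Ipo13, -0.017 for Ipo8, -0.127 for Kpna6, -0.024 for Nup62cl and -0.050 for Ranbp2. Without vector control replicate 1 they were -0.098 for Ipo8, -0.084 for Kpna6, -0.0041 for Nup62cl and -0.089 for Ranbp2. Without caNFATc1 replicate 1 Kpna1 and Ranbp6 were at -0.045 and -0.078, and without caNFATc1 replicate 3 Ipo8 and Ranbp2 at -0.0025 and -0.011. Without replicate 2 of both groups, with or without the replicate block, Ipo13 and Ranbp2 were at -0.073 and -0.0018.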
